A study of Mus musculus with 36 samples.

Results

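The 10 genes of purine nucleotide metabolism described here in mouse gastrocnemius are Xdh, Ampd1, Ampd3, Adk, Ada, Aprt, Nt5c1a, Adssl1, Adsl and Ak1. They were taken by exact gene name from the count table, and all 10 of 10 names were found among its 46893 genes. The muscle came from 36 male wild-type C57BL/6 mice, 6 in each of 6 groups, which were 3 to 4 weeks old at the start. NFD-C mice were sedentary on the AIN93G diet, and HFD-C mice were sedentary on a high-fat diet made with soybean oil. The 4 exercise groups ate the same high-fat diet and ran in their cages each night for 12 weeks, HFD-25% on average 2.1, HFD-50% 4.2, HFD-75% 6.3 and HFD-U 8.3 km/day. Only HFD-U ran without limit, and in the other groups a brake stopped the wheel once the daily distance had been run.

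Working muscle turns ATP into ADP and AMP. Adenylate kinase 1 (Ak1) interconverts the adenine nucleotides, AMP deaminase (Ampd1, Ampd3) turns AMP into IMP, and adenylosuccinate synthase (Adssl1) and adenylosuccinate lyase (Adsl) rebuild AMP from IMP, which together form the purine nucleotide cycle. Adenosine and adenine are recovered by adenosine kinase (Adk) and adenine phosphoribosyltransferase (Aprt), while cytosolic 5'-nucleotidase 1A (Nt5c1a) splits AMP into adenosine, and adenosine deaminase (Ada) turns adenosine into inosine. Xanthine dehydrogenase (Xdh) carries out the last steps of breakdown, from hypoxanthine through xanthine to urate, and in muscle it is known also from the endothelial cells of capillaries.

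The libraries held 13060090 to 27981702 counts on genes, and the members other than Ada were read 18 to 32502 times per library. All 10 skeletal muscle markers were found and led by Myh4, the myosin of fast fibres. A share of 0.551 to 3.54% of the counts of HFD-C and 2.01 to 3.8% of those of NFD-C lay on rRNA-linked features, against 0.404 to 1.02% in the running mice, and 4 of 6 HFD-C libraries carried the high share. This technical difference runs along with sedentary against running, and its part in the results below was not tested beyond the fits that are named.

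Per transcript length the members fell into 3 tiers, given as the mean FPKM, a read count scaled by transcript length and library size, over 36 mice. Adssl1 at 569, Ampd1 at 457 and Ak1 at 451 FPKM stood far above the rest, and each lay at or above the 99.3 percentile of CPM among the genes tested. Adsl at 30.3, Aprt at 21.2, Xdh at 12.0 and Adk at 8.48 FPKM formed the middle tier. Ampd3 at 2.42, Nt5c1a at 1.67 and Ada at 0.27 FPKM were low, and Ampd2, the third AMP deaminase gene of the mouse and not a member, had 1.61 FPKM.

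Promoter sequences are shown for 2 members at the ends of this range that have a single RefSeq start, Adssl1 with the highest level per length and Nt5c1a with the lowest among the members tested. RefSeq (GRCm38.p6) sequences were found for 8 of 10 members, all but Xdh and Ampd1. Each line gives the 250 bases before the start on the + strand, at chr12:112619797-112620046 for Adssl1 and chr4:123201235-123201484 for Nt5c1a. Capitals mark matches on either strand to TGTTCT (half-site of the glucocorticoid receptor), CAGCTG or CACCTG (E-boxes of myogenic factors), CCAAT and GGGCGG (GC box).
Adssl1: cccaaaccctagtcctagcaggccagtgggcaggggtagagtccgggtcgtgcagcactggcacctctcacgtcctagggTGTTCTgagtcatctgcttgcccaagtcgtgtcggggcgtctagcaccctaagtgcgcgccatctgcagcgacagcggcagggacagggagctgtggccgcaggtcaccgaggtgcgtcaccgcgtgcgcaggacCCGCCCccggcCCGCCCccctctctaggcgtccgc
Nt5c1a: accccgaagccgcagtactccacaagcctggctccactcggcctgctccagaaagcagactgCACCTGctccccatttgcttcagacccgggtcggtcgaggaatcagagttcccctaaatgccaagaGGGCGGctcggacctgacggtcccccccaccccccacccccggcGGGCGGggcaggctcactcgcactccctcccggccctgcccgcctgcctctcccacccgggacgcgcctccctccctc
The Adssl1 window held 1 TGTTCT, starting 170 bases before the start, and 2 GC boxes at 35 and 24 bases. The Nt5c1a window held 1 CACCTG at 188 bases and 2 GC boxes at 122 and 78 bases. In windows of the same length before 32851 RefSeq starts, TGTTCT occurred in 16.1%, CAGCTG in 13%, CACCTG in 17.2%, CCAAT in 33.8% and GGGCGG in 32.7%.

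Xdh (gene 22436, GRCm39 chr17:74190890-74257369, minus strand) was the member whose level differed most between the groups. It was lowest in HFD-C, more than doubled on average in the 2 groups with the shortest distances, and lay between these levels in HFD-75% and HFD-U. In HFD-C the 6 mice had 35.95, 49.7, 38.8, 77.2, 37.4 and 31.0 CPM, read counts scaled by library size with TMM factors, a mean of 45.0 ± 16.9 (SD, n = 6). In HFD-25% they had 60.9, 66.6, 123, 139.5, 76.9 and 196 CPM, a mean of 110.5 ± 52.6 (SD, n = 6). In HFD-50% they had 80.7, 76.2, 109, 89.0, 134 and 135 CPM, a mean of 104 ± 26.2 (SD, n = 6). In HFD-C 5 of 6 mice, all but the one numbered 4, lay below every mouse of both groups, and 5 of 6 mice in HFD-50% but 3 of 6 in HFD-25% lay above all of HFD-C.

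The longer distances gave smaller values. In HFD-75% the 6 mice had 73.2, 69.8, 95, 54.1, 74.7 and 62.8 CPM, a mean of 71.6 ± 13.8 (SD, n = 6). In HFD-U they had 43.6, 38.7, 70.1, 97.8, 70.9 and 55.1 CPM, a mean of 62.7 ± 21.7 (SD, n = 6). In NFD-C they had 61.0, 22.2, 82.2, 71.8, 53.5 and 65.7 CPM, a mean of 59.4 ± 20.7 (SD, n = 6). Each of these 3 groups overlapped HFD-C, as HFD-25% and HFD-50% did, with 1 of 6 mice in each of the 3 above all of it. All HFD-75% mice lay above every HFD-C mouse but the one numbered 4, since the others reached at most 49.65 CPM. The same held in HFD-25% and HFD-50% but not in HFD-U or NFD-C.

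**Figure D1:**
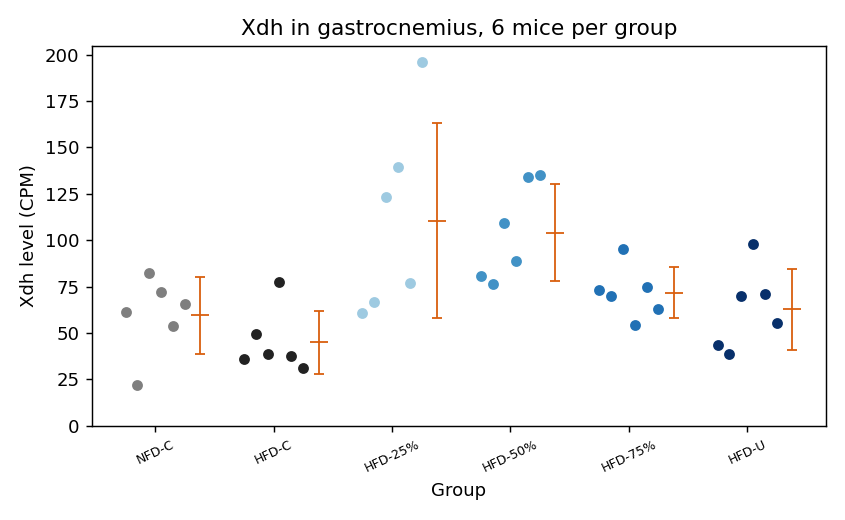
Xdh level (y axis, CPM) in the 6 mice of each group (x axis); each point is 1 mouse, ordered by its number, and the orange bar is the group mean ± SD. HFD-25% and HFD-50% have the highest means, 110.5 and 104 CPM, and 1 HFD-C mouse at 77.2 CPM stands above the other 5, which reach at most 49.7 CPM.

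Against HFD-C, the log2 fold change of Xdh was 1.30 ± 0.29 (SE) in HFD-25% (adjusted p = 0.259 in edgeR's quasi-likelihood test) and 1.21 ± 0.23 in HFD-50% (adjusted p = 0.108). It was 0.67 ± 0.20 in HFD-75% (adjusted p = 0.551), 0.48 ± 0.24 in HFD-U (adjusted p = 0.937) and 0.41 ± 0.27 in NFD-C (adjusted p = 1). None of these edgeR fits of a single pair with the minimum count passed an adjusted p of 0.05. Other fits passed it in HFD-25% and HFD-50%: DESeq2 on the same genes (adjusted p = 0.00477 and 0.000703), edgeR in 1 fit over all 36 mice (adjusted p = 0.0447 and 0.0223) and edgeR with no minimum count (adjusted p = 0.0258 and 0.0189). These comparisons share the same 6 HFD-C mice, and without mouse 4 of HFD-C the log2 fold change was 1.52, 1.44, 0.90 and 0.71 in the 4 exercise groups, with adjusted p of 0.12, 0.0202, 0.112 and 0.565. In HFD-U, with the mouse number as a replicate block, the log2 fold change of Xdh was 0.48 (adjusted p = 0.327) and passed the unadjusted limit of 0.05. Xdh is also one of the genes that the study picked from these libraries for their dose response, so its tests are not independent evidence. The study also measured Xdh by RT-qPCR in the same RNA samples. It reported higher levels than in HFD-C in HFD-50% and HFD-75%, and named no such difference for HFD-25% or HFD-U.

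Over all 6 groups together Xdh differed (adjusted p = 0.0234), the only member to pass the adjusted limit in any comparison, and 1.45% of the 12053 genes tested passed it. With a covariate for the rRNA-linked share the adjusted p of this test was 0.11. In the comparisons with HFD-C, this covariate gave log2 fold changes of 1.51, 1.35, 0.85 and 0.68 in order of distance (adjusted p = 0.209, 0.243, 0.411 and 0.39 in edgeR's test). The libraries of low share alone, with 2 HFD-C mice, gave 1.70, 1.61, 1.07 and 0.88 (adjusted p = 0.346, 0.345, 0.381 and 0.343). This subset also left out mouse 4 of HFD-C, which had the highest Xdh of that group. A dose response (linear plus quadratic in distance) gave an adjusted p of 0.0526 in the 30 mice fed the high-fat diet and 0.301 in the 24 runners. In the order of the group means, HFD-C, NFD-C, HFD-U, HFD-75%, HFD-50% and HFD-25%, neighbours had unadjusted p from 0.0561 to 0.773 in 1 fit over all 36 mice. In the fit of HFD-75% and HFD-50% alone, these neighbours passed the unadjusted limit of 0.05. Between exercise groups Xdh was lower in HFD-U than in HFD-50% by 0.73 ± 0.22 on the log2 scale (adjusted p = 0.259) and lower than in HFD-25% by 0.82 ± 0.29 (adjusted p = 0.927). It was also lower in HFD-75% than in HFD-50% by 0.54 ± 0.17 (adjusted p = 0.838) and than in HFD-25% by 0.63 ± 0.26 (adjusted p = 0.999).

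The level of Xdh followed that of endothelial genes from mouse to mouse. By Pearson correlation of log2 CPM over the 36 mice, the 6 genes most like Xdh among 12053 were Flt1 (r = 0.934), which encodes a receptor for VEGF, then Slc43a3 (0.929), Kank3 (0.919), Bmp6 (0.909), Fmo2 (0.905) and Adgrf5 (0.900). Each point is 1 library, and the same groups and depth lie behind both genes of a pair. They were chosen for this likeness in the same mice, so their group levels follow from the choice and are given only as a description. Flt1, which also belongs to the endothelial marker list used here, had 56.2 ± 14.9 CPM in HFD-C, 106.5 ± 49.6 in HFD-25% and 90.7 ± 24.7 in HFD-50% (SD, n = 6 each), with overlap between these groups.

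The summed level of 12 endothelial markers, all of them found, had a median of 314 CPM in HFD-C (240.5 to 444), 320.3 in NFD-C (245 to 394), 408 in HFD-50% (297.5 to 621), 362 in HFD-75% (310.2 to 543.5), 339 in HFD-U (235 to 499.6) and 449.6 in HFD-25% (273 to 843). Of these 12 genes, 6, 6, 3 and 0 were higher than in HFD-C at an unadjusted p of 0.05 in order of distance in edgeR's test, and none passed the adjusted limit. Over all genes 6.98, 10.7, 5.47 and 5.46% passed the unadjusted limit in either direction in these comparisons. Xdh correlated with the sum at r = 0.864 (permutation p = 1e-05, adjusted p = 0.000198 over 99 correlations) and rho = 0.831 (permutation p = 1e-05, adjusted p = 9.9e-05), where 1e-05 is the smallest p that 100000 permutations can give. Without the 2 mice farthest from the median of the sum r was 0.821, and after subtraction of each group's mean it was 0.866. In this bulk muscle, more endothelial cells and more Xdh RNA in each of them cannot be told apart. Sums of other marker lists varied with Xdh too, up for blood and adipocyte markers and down for skeletal muscle markers. For the 5 blood markers r was 0.538 (permutation p = 0.00058, adjusted p = 0.00319), rho 0.581 (permutation p = 0.00025, adjusted p = 0.00129), r without the 2 farthest mice 0.523 and r within groups 0.643. For the 8 adipocyte markers r was 0.521 (permutation p = 0.00101, adjusted p = 0.005), rho 0.538 (permutation p = 8e-04, adjusted p = 0.00305), r without the 2 farthest mice 0.452 and r within groups 0.604. For the 10 skeletal muscle markers r was -0.532 (permutation p = 0.00078, adjusted p = 0.00406), rho -0.55 (permutation p = 0.00058, adjusted p = 0.00239), r without the 2 farthest mice -0.407 and r within groups -0.589. The blood sum had a median of 264.6 CPM in HFD-50% (135.2 to 380) against 199.6 in HFD-C (171 to 410.1), and the adipocyte sum one of 274.5 (150 to 459) against 183.3 (159.8 to 382). The adipocyte sum was mostly Fabp4, with a mean of 220.9 CPM against 6.94 for the next marker, Cfd. It is therefore close to the level of 1 gene and is not read here as an amount of fat cells. The part of other cells in the Xdh values was not tested.

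The level of Xdh was also set against the endothelial sum of the same mouse. Xdh is not part of this sum. The ratio of its CPM to the sum was 13.6 ± 2.31% in HFD-C (11.7 to 17.4%), 23.8 ± 5.06% in HFD-50% (18.4 to 30.3%), 22.8 ± 1.48% in HFD-25% (20.3 to 24.6%), 18.9 ± 2.21% in HFD-75%, 18.1 ± 1.41% in HFD-U and 17.6 ± 4.51% in NFD-C (SD, n = 6 each). The ranges of HFD-25% and HFD-50% did not overlap that of HFD-C. Those of HFD-75% (16.4 to 22.5%), HFD-U (16.4 to 19.6%) and NFD-C (9.06 to 21.7%) did. How many other genes would separate from HFD-C by such a ratio was not worked out. With the endothelial sum as a covariate, chosen after seeing the data, the log2 fold change of Xdh against HFD-C was 0.71, 0.83, 0.44 and 0.39 in order of distance. The adjusted p were 0.0874, 0.114, 0.602 and 0.283 in these 4 fits, and 0.013 for the dose response over 30 mice.

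**Figure D2:**
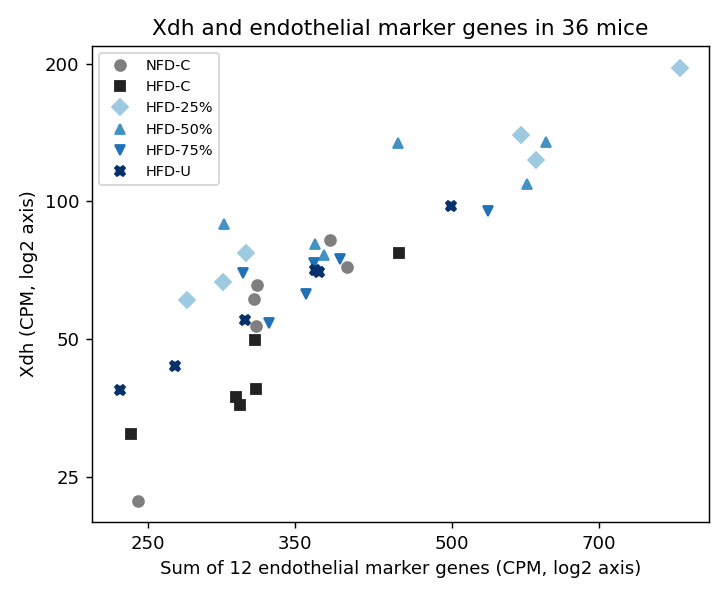
Xdh (y axis, CPM) against the sum of 12 endothelial marker genes (x axis, CPM), both on log2 axes; each point is 1 of 36 mice and the marker shows its group. The points rise together with r = 0.864, and HFD-C mice lie along the lower edge of the cloud.

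In the main edgeR fits of a single pair, Ampd1 of the purine nucleotide cycle had an unadjusted call against HFD-C, and Adssl1 and Adsl had none. Ampd1 (chr3:102981330-103007038), the AMP deaminase of muscle fibres, had its lowest mean in HFD-50%. In HFD-C the mice had 1038, 1149, 1251, 967, 1193 and 1192 CPM of Ampd1, a mean of 1132 ± 107 (SD, n = 6). In HFD-50% they had 1017, 1071, 860.2, 858.5, 706 and 700 CPM, a mean of 869 ± 154 (SD, n = 6). Of the 6 HFD-50% mice, 4 lay below every HFD-C mouse and the other 2 within the range of that group.

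The log2 difference of Ampd1 between HFD-50% and HFD-C was -0.38 ± 0.15 (SE, adjusted p = 0.37). Means were 961 ± 244 CPM in HFD-25%, 1052 ± 209 in HFD-75%, 1149 ± 172 in HFD-U and 1262 ± 202.5 in NFD-C (SD, n = 6 each), and none of these passed the unadjusted limit of 0.05 against HFD-C. HFD-U was higher than HFD-50% by 0.40 ± 0.14 on the log2 scale (adjusted p = 0.294). The summed slow fibre markers, all 7 of them found, had their highest median in HFD-50% too, 1641 CPM (585 to 3880) against 1162 in HFD-C (133 to 2320), and their part in this result was not tested. The dose response over 30 mice gave adjusted p = 0.355 and the test over all 6 groups adjusted p = 0.286. With the endothelial sum as a covariate, the log2 difference between HFD-50% and HFD-C was -0.23 (adjusted p = 0.615), and Ampd1 no longer passed the unadjusted limit there, in HFD-U against HFD-50%, in the dose response or over all 6 groups. Over the 36 mice Ampd1 was low where Xdh was high, with r = -0.666 (permutation p = 1e-05, adjusted p = 0.000198), rho = -0.681 (permutation p = 1e-05, adjusted p = 9.9e-05), r = -0.542 without the 2 mice farthest from the median of Xdh and r = -0.533 within groups.

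Adssl1 (chr12:112586481-112607789), the muscle form of adenylosuccinate synthase, had group means from 969 ± 89.2 CPM in HFD-50% to 1087 ± 107 in HFD-75% (SD, n = 6 each), with 1040 ± 154 in HFD-C. Adsl (chr15:80832691-80855148), the next enzyme of the cycle, ran from 106 ± 7.06 CPM in HFD-C to 120.3 ± 9.89 in HFD-75%. Adsl in HFD-75% came nearest to a call, with 4 of 6 mice above every HFD-C mouse and a log2 fold change of 0.19 ± 0.09 (SE, adjusted p = 0.929). For both genes every other comparison with HFD-C had a larger unadjusted p.

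Ampd3 (chr7:110367223-110411616), the second AMP deaminase gene, had a mean of 21.9 CPM in HFD-50% against 9.71 to 12.7 CPM in the other 5 groups. That mean came from 1 mouse. The HFD-50% mice had 21.9, 7.25, 10.99, 65.9, 14.2 and 11.01 CPM, and mouse 4 alone reached 65.9. The same mouse had the lowest Ak1 of the group, 503 CPM against 1020 to 1160 in the others, the lowest sum of skeletal muscle markers in HFD-50% and the highest Mocs1, a gene taken up below.

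HFD-50% differed from HFD-25% in Ampd3 by 1.06 ± 0.46 (SE, adjusted p = 1) and HFD-U from HFD-50% by -1.18 ± 0.46 (adjusted p = 0.335). Without mouse 4 these values were 0.29 and -0.42, and the adjusted p of the test over all 6 groups moved from 0.345 to 0.967. With a covariate for the rRNA-linked share the 2 differences were 0.27 and -0.19. Ampd3 overlaps Rnf141 on the other strand, and the strand setting of the counting is not given in the sources used here. Over the 36 mice Ampd3 ran against Ak1 with r = -0.818 (permutation p = 1e-05, adjusted p = 0.000198), rho = -0.734 (permutation p = 1e-05, adjusted p = 9.9e-05), -0.645 without the 2 mice farthest from the median of Ampd3 and -0.834 within groups. Without mouse 4 of HFD-50% alone r was -0.668.

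Ak1 (chr2:32511770-32525070) had 1239 ± 207 CPM in HFD-C, 989.9 ± 244 in HFD-50%, 1210 ± 121 in HFD-75%, 1351 ± 161 in NFD-C, 1151 ± 222.5 in HFD-25% and 1208 ± 122 in HFD-U (SD, n = 6 each). All groups overlapped HFD-C, and no comparison with it reached an unadjusted p of 0.05 (adjusted p = 0.585 in HFD-50%).

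**Figure D3:**
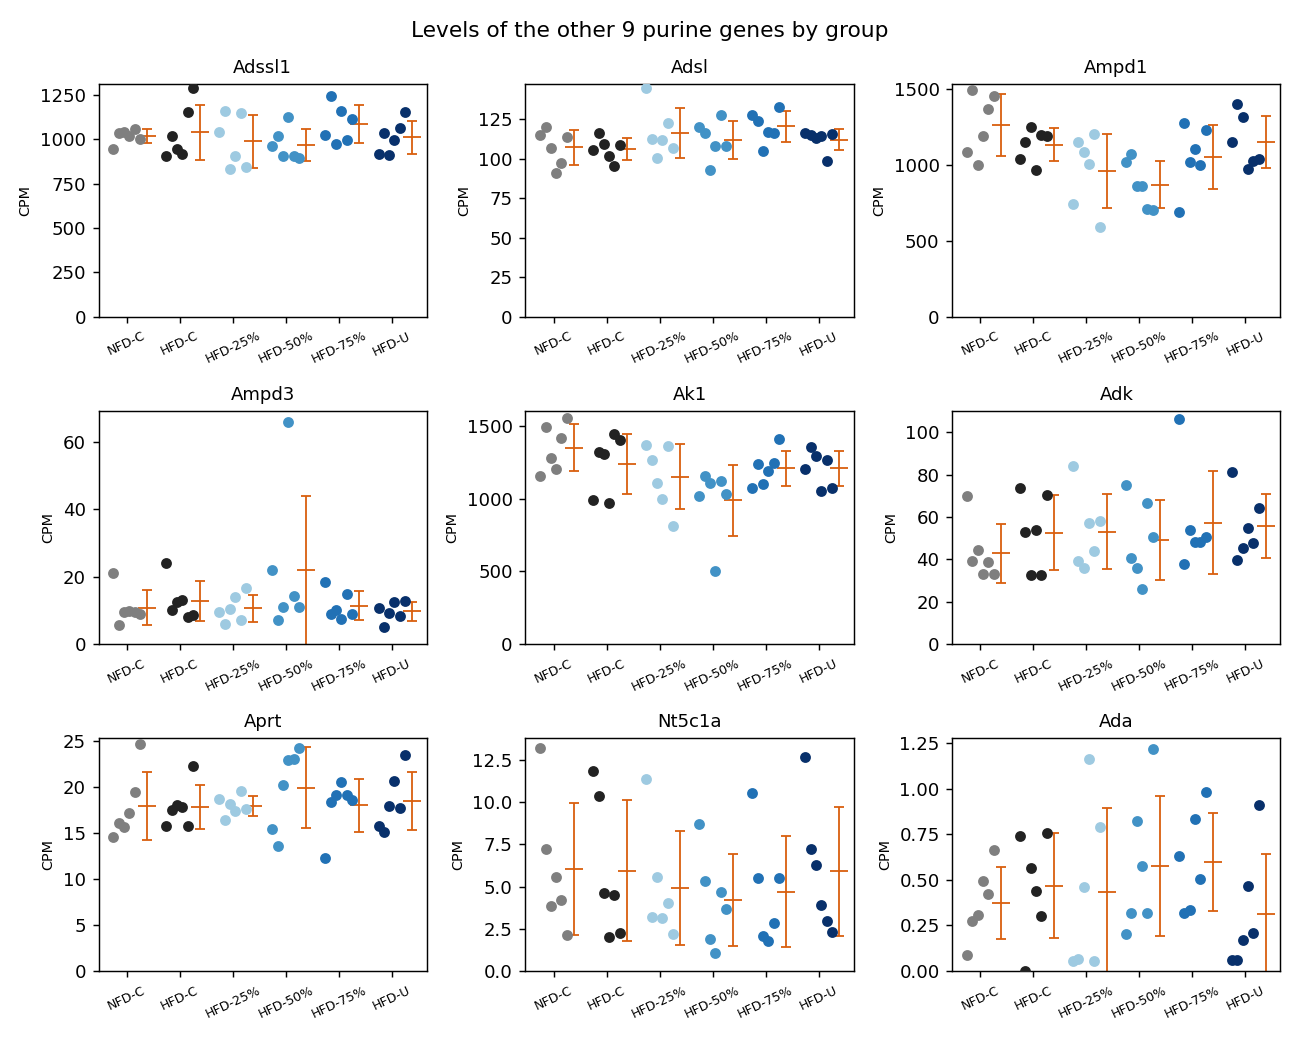
Levels (y axes, CPM) of the other 9 members in the 6 groups; each point is 1 mouse, ordered by its number, and the orange bar is the group mean ± SD. Groups overlap for every gene, and single mice stand apart for Ampd3 and Ak1 in HFD-50% (65.9 and 503 CPM) and for Adk in HFD-75% (106 CPM).

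Among the genes of adenosine handling, Nt5c1a and Adk were highest in the mouse numbered 1. Nt5c1a (chr4:123095026-123119128), read at 18 to 334 counts per library, was highest in the mouse numbered 1 in 6 of 6 groups. In HFD-C the mice had 11.8, 10.3, 4.65, 2.004, 4.52 and 2.27 CPM, and in HFD-U they had 12.7, 7.21, 6.27, 3.93, 2.97 and 2.31 CPM. Mouse 1 had 2.49 to 3.13 times the mean of the other 5 mice of its group.

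Adk (chr14:21102622-21498637) was also highest in mouse 1 in 6 of 6 groups, with 70.1 CPM against at most 44.2 in the other mice of NFD-C and 106 against at most 53.7 in HFD-75%. The ratio to the mean of the other 5 mice was 1.52 to 2.23, and in HFD-C mouse 6, at 70.3 CPM, came close to mouse 1 at 73.6. Of the 12053 genes tested over all mice, 514 (4.26%) were highest in mouse 1 in all 6 groups and 148 (1.23%) lowest. The labels do not say what the number stands for. Group means of Nt5c1a were 4.21 to 6.03 CPM and those of Adk 42.9 to 57.4 CPM, and neither gene had an unadjusted p of 0.05 or less in any comparison.

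**Figure D4:**
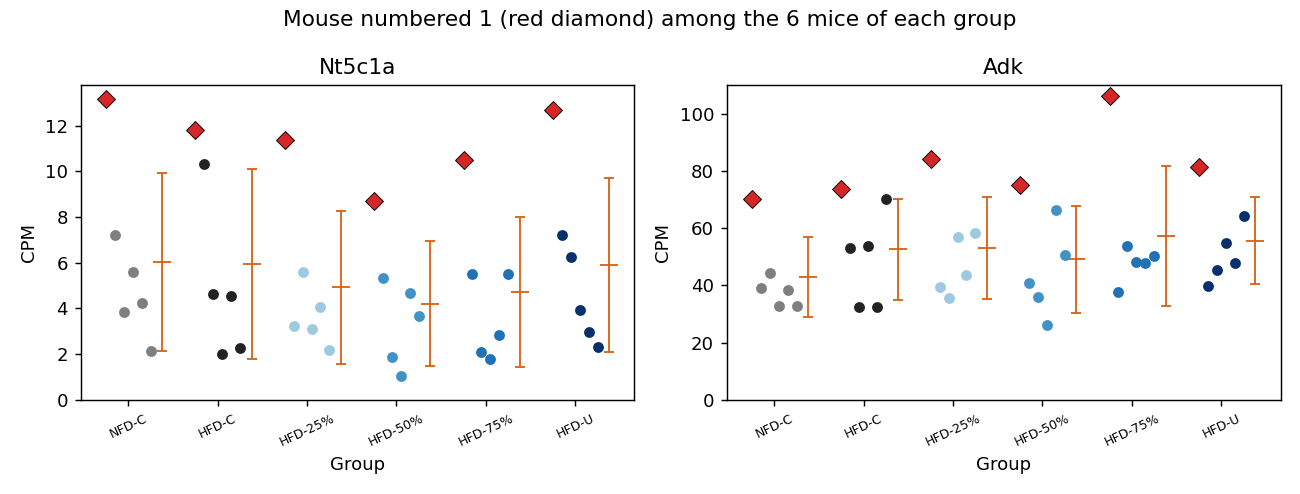
Nt5c1a and Adk (y axes, CPM) in each group, with the mouse numbered 1 as a red diamond, the other mice as points and the group mean ± SD in orange. The red diamond is the highest of the 6 mice in all 6 groups for both genes.

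Aprt (chr8:123301376-123303646) was the steadiest of the recovery enzymes between groups, with means of 17.9 to 19.9 CPM and no unadjusted p of 0.05 or less in any comparison. Its highest mean was in HFD-50%, 19.9 ± 4.42 CPM against 17.9 ± 2.39 in HFD-C (SD, n = 6 each). Ada (chr2:163568491-163592161) had 0 to 22 counts per library and did not pass the minimum mean count of 25, so it was not tested. It had 0 counts in 1 HFD-C mouse, which allows a level of up to 0.155 CPM, and group means of 0.312 to 0.600 CPM, with 10 of 36 mice at 3 counts or fewer. No statement on Ada between groups is made.

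Of the 9 members tested, 1 had an unadjusted p of 0.05 or less against HFD-C in HFD-25% (6.98% of all genes did) and 2 did in HFD-50% (10.7%). HFD-75% had 1 such member (5.47%), and HFD-U (5.46%) and NFD-C (4.12%) had 0. Xdh made up each of these counts, joined by Ampd1 in HFD-50%. In the dose response 2 members passed over 30 mice (12.2% of all genes) and 1 over 24 running mice (8.49%). Over all 6 groups 3 members passed (12.2%). Between exercise groups, the unadjusted limit was passed by Ampd3 in HFD-50% against HFD-25% (2.69% of all genes), by Xdh in HFD-75% against HFD-25% (3.12%), HFD-U against HFD-25% (5.1%) and HFD-75% against HFD-50% (5.37%), by Xdh, Ampd1 and Ampd3 in HFD-U against HFD-50% (12.4%), and by 0 members in HFD-U against HFD-75% (5.57%). In these same edgeR fits the adjusted limit was passed by 0 members outside the test over all groups, although Xdh passed it in other fits, as given above. It was passed by 0.0082% of all genes in HFD-25% against HFD-C, 0.00844% in HFD-U against HFD-50%, 0.683% and 0.0419% in the dose response over 30 and 24 mice, and 0% in the other pairs. The median log2 fold change of the 9 members was -0.07, -0.09, 0.02 and 0.02 in the 4 exercise groups, beside -0.01, 0.01, -0.0009 and -0.01 over all genes tested.

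**Figure D5:**
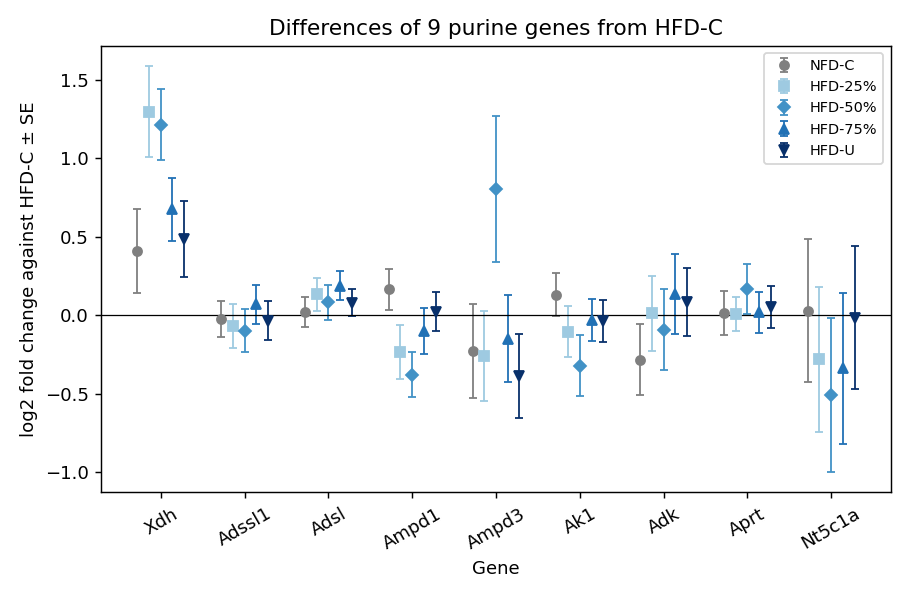
log2 fold change against HFD-C (y axis) of the 9 members tested (x axis), with 1 marker for each of the 5 comparisons and bars of 1 SE. Xdh has the highest values, 1.30 in HFD-25% and 1.21 in HFD-50%; the large value of Ampd3 in HFD-50% rests on 1 mouse.

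Beyond the members, 82 further purine genes in 7 lists were read in the same fits, of which 55 to 59 passed the minimum count. Against HFD-C 3 of 58 had an unadjusted p of 0.05 or less in HFD-25% (6.98% of all genes did), all higher. In HFD-50% there were 7 of 59 (10.7% of all genes), of which 6 were higher. HFD-75% had 3 of 56 (5.47%), of which 2 were higher, and HFD-U had 3 of 57 (5.46%), of which 1 was higher. NFD-C had 3 of 59 (4.12%), of which 1 was higher, so these counts lay near the share over all genes. None passed the adjusted limit against HFD-C in these edgeR fits, but 3 did over all 6 groups: Ppat, Abcg2 and Mocs1. Each of these 3 calls was lost with a covariate for the rRNA-linked share (adjusted p = 0.106, 0.106 and 0.146).

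Among the genes of de novo synthesis Ppat passed the adjusted limit, which encodes the amidotransferase of the first committed step. It had 33.5 ± 6.86 CPM in HFD-C (24.7 to 43.7), 21.3 ± 4.23 in HFD-50% (16.8 to 28.2), 24.3 ± 2.66 in HFD-75%, 35.2 ± 5.64 in HFD-U and 27.1 ± 7.07 in HFD-25% (SD, n = 6 each). HFD-50% had the lowest mean and overlapped HFD-C. The log2 difference from HFD-C was -0.65 ± 0.16 (SE) in HFD-50% (adjusted p = 0.139), -0.46 ± 0.13 in HFD-75% (adjusted p = 0.482) and 0.07 ± 0.14 in HFD-U (adjusted p = 0.997). Ppat had an adjusted p of 0.0186 in the dose response over 30 mice and 0.0333 over all 6 groups. Without mouse 4 of HFD-50% the latter was 0.0665, and with the endothelial sum as a covariate 0.108. Its neighbour Paics, which encodes a later enzyme of the pathway and shares 277 bases with it, had 85.8 ± 11.8 CPM in HFD-50% and 94.7 ± 5.35 in HFD-C and was chosen after its values were seen.

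Among carriers and receptors Abcg2 differed, the exporter that moves urate, the product of Xdh, out of cells. It had 18.5 ± 5.30 CPM in HFD-C, 32.0 ± 4.54 in HFD-50%, 30.4 ± 7.70 in HFD-25%, 24.6 ± 3.43 in HFD-75%, 29.4 ± 2.99 in HFD-U and 22.9 ± 3.61 in NFD-C (SD, n = 6 each). All mice of HFD-50% (26.1 to 38.05) and HFD-U (26.4 to 34.7) lay above all of HFD-C (9.06 to 25.05 CPM), and each exercise group passed the unadjusted limit of 0.05. Abcg2 was named for its test in these same mice, so this separation is a description. The share of all genes that separate in this way was not worked out. The log2 fold change was 0.72 ± 0.21 (SE, adjusted p = 0.427), 0.80 ± 0.19 (adjusted p = 0.139), 0.42 ± 0.19 (adjusted p = 0.889) and 0.67 ± 0.18 (adjusted p = 0.436) in order of distance. Over all 6 groups its adjusted p was 0.0286, and 0.0502 in the mice numbered 2 to 6.

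Among the genes of the molybdenum cofactor, which Xdh needs, Mocs1 differed over all 6 groups with an adjusted p of 0.031. It had 17.4 ± 5.92 CPM in HFD-C and 35.01 ± 23.4 in HFD-50% (SD, n = 6 each), where mouse 4 reached 82.4 against a group median of 25.6 CPM. Without that mouse the adjusted p was 0.139. Aox1, an aldehyde oxidase built like Xdh on this cofactor and chosen after its values were seen, had 53.4 ± 14.7 CPM in HFD-C and 85.9 ± 20.4 in HFD-50%, with a log2 fold change of 0.70 ± 0.20 (SE, adjusted p = 0.211).

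In the other 4 lists no gene passed the adjusted limit in any comparison. In the dose response over 30 mice the smallest p in the branches to AMP and GMP belonged to Impdh1 (adjusted p = 0.385), the IMP dehydrogenase of the guanine branch, and then to Ampd2. In the same test they belonged to Dck and Mtap in salvage, where HFD-U against HFD-50% gave a smaller adjusted p (0.382 against 0.546), and to Nme6 and Nme2 among the kinases (0.508 against 0.611). In breakdown they belonged to Entpd5 (adjusted p = 0.231) and Nt5c3b (adjusted p = 0.365). Entpd5, a nucleoside diphosphatase, had 15.7 ± 1.22 CPM in HFD-C and 12.2 ± 2.11 in HFD-U (SD, n = 6 each), a log2 difference of -0.36 ± 0.13 (SE, adjusted p = 0.765).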

How the data were processed

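Poly(A) libraries of 36 mice were sequenced in pairs of reads. The authors aligned the reads with HISAT2 2.0.5 and counted them on genes with featureCounts 1.5.0-p3 (the processing notes also name StringTie 1.3.3b, DESeq2 1.20.0 and edgeR 3.22.5), and deposited raw counts per gene and library with no normalization. The processing notes name another mouse build, but the chromosome sequences named in the deposited table are those of GRCm39, so member coordinates are given as GRCm39. The tests were run in edgeR 4.0.16 under R 4.3.3 (TMM, quasi-likelihood F-test, two-sided, minimum mean count of 25 over the fitted libraries, Benjamini-Hochberg adjustment over all genes of the fit). Each pair of groups was fitted alone, all 36 mice with group as a factor, and the dose response as linear plus quadratic in distance. DESeq2 1.42.0 and limma 3.58.1 served as alternatives. An unadjusted p of 0.05 is the limit the study used for its gene counts and enrichment, and the adjusted limit here is 0.05. For its most changed genes and the choice of RT-qPCR genes the study used an adjusted p of 0.05 and a fold change limit. CPM are scaled with TMM factors, and FPKM divide them by the gene length given with the counts. The counting limit for 0 reads was 3 counts and covers counting error only. Correlations used log2 CPM (prior count 2), and each p came from 100000 permutations, two-sided.

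The members and gene lists were chosen with earlier results of these data known. The text names all members, of each other purine list every gene past the adjusted limit in any comparison or else the 2 with the smallest p in the dose response over 30 mice, the 6 genes most correlated with Xdh, and the 2 most abundant genes of a marker list where one is cited. Other genes were chosen after their values were seen. Mouse numbers recur across groups, but nothing says that they mark shared litters or days. Only between HFD-C and HFD-U did all 6 same-numbered mice correlate above 0.1 (0.125 to 0.51), so the number was a block only in an alternative, given beside the result of that pair. The mice numbered 1, however, correlated in every pair of groups, from 0.323 (HFD-C and HFD-25%) to 0.598 (NFD-C and HFD-C). Theirs was the highest of the 6 values in all pairs but HFD-25% and HFD-U. Alternatives were DESeq2, limma, other size factors, no minimum count, 1 fit over all mice, covariates, subsets of libraries and leaving out each mouse. The endothelial covariate, the mice numbered 2 to 6 and the fits without mouse 4 of HFD-50% in comparisons of exercise groups and of all groups were chosen after seeing the data. The fits were also run on simulated counts drawn independently for each mouse. Those counts hold no difference in rRNA-linked share, no pattern by mouse number and no single mouse apart, so they cannot show how the fits handle these.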

Additional observations from a re-analysis of the deposited data

Results flagged for a closer look

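Of 60 sets of 6 mice (10 genes in 6 groups), 10 were flagged by Dixon's test. In each, the distance of 1 mouse from its nearest neighbour was large against the whole range of its group. The nominal rate of the test, about 1 in 20, holds for independent and normally distributed values. These sets share mice and used CPM without a log, and the share flagged over all genes was not worked out. The number of sets is therefore not read as a trait of the members. Mouse 1 was the one apart in 6 of these. It was highest for Ampd3 in NFD-C (21.1 CPM, next 9.76) and HFD-C (23.9, next 13), for Adk in NFD-C (70.1, next 44.2) and HFD-75% (106, next 53.7) and for Nt5c1a in HFD-25% (11.4, next 5.57), and lowest for Aprt in HFD-75% (12.3, next 18.4). Mouse 4 of HFD-50% was apart for Ampd3 (65.9 CPM, next 21.9) and Ak1 (503, next 1020). Aprt was highest in mouse 6 of HFD-C (22.3, next 18.1), and Adsl was lowest in mouse 5 of HFD-U (98.3, next 113).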

How the results depend on the processing

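None of the values recomputed changed sign under the alternatives run. The log2 fold change of Xdh passed the adjusted limit in HFD-25% with DESeq2 (1.299), in 1 fit over all 36 mice (1.297) and with no minimum count (1.31), and in HFD-50% likewise (1.21, 1.21 and 1.21). The adjusted p of its dose response over 30 mice was 0.00608 with DESeq2, 0.013 with the endothelial sum, 0.0414 with group as a factor, 0.0398 in limma and 0.0299 with no minimum count. A linear term alone gave an unadjusted p of 0.929 in edgeR's test. The adjusted p of the dose response stayed above 0.05 with a covariate for the rRNA-linked share (0.155) and in libraries of low share (0.219). The same held in mice 2 to 6 (0.142), with other size factors (0.0519) and without the rRNA-linked features (0.0564). With mouse number as a replicate block the adjusted p of the dose response was 0.0173, the block also raised the members at an unadjusted p of 0.05 in HFD-U from 0 to 1, and it moved no other count by over 1.5 times. It ended 1 unadjusted call, that of Xdh in HFD-75% against HFD-25% (log2 difference -0.51, adjusted p = 0.95). Those members numbered 2 in HFD-25%, 2 in HFD-75%, 1 in HFD-U and 1 in NFD-C with the endothelial sum, and stayed 2 in HFD-50%, where Ampd1 lost its call. They numbered 4 in HFD-50%, 3 in NFD-C and 4 over the 6 pairs of exercise groups (7 in the main fits) with a covariate for the rRNA-linked share. In HFD-50% they numbered 4 in 1 fit over all mice (Xdh, Ampd1, Ampd3 and Ak1) and 1 in libraries of low rRNA-linked share. They numbered 2 in HFD-75% and 1 in HFD-U with DESeq2, and 1 in HFD-U with no minimum count and in libraries of low share. In the dose response they numbered 0 with a linear term alone and 1 in mice 2 to 6 over 30 mice, and 2 over 24 mice with group as a factor or no minimum count. The share of all genes passing was not worked out for these alternatives, so their counts of members cannot be set against it. The cause was not tested.

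Leaving out 1 mouse in turn gave 1 to 1 member in HFD-25%, 1 to 3 in HFD-50%, 1 to 2 in HFD-75%, 0 to 1 in HFD-U, 0 to 1 in NFD-C and 1 to 3 in the dose response. The count fell to 1 without mouse 5 of HFD-50% in that group, and in the dose response without mouse 5 or 6 of HFD-50% or mouse 2 or 3 of HFD-U. It rose to 2 in HFD-75% without its mouse 3 or mouse 2 of HFD-C. It rose to 1 in HFD-U without its mouse 1 or 2 and in NFD-C without its mouse 1 or 2, and in both without mouse 4 of HFD-C. For these fits, too, the share over all genes was not worked out. The log2 fold change of Xdh ran from 1.06 to 1.52, 1.12 to 1.44, 0.58 to 0.90, 0.31 to 0.71 and 0.28 to 0.63 in HFD-25%, HFD-50%, HFD-75%, HFD-U and NFD-C. The adjusted p of its dose response ran from 0.0229 to 0.118, and was at most 0.05 without mouse 1 or 6 of HFD-25%, mouse 4 of HFD-75%, mouse 4 of HFD-C or mouse 4 of HFD-U. Low counts limit Ada, while the spread between mice limits Nt5c1a (CV of 64.6 to 70.2% within groups).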

Other observations

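The abundant members followed the muscle fibre markers from mouse to mouse. Over the 36 mice Ak1 correlated with the summed skeletal muscle markers at r = 0.79 (permutation p = 1e-05, adjusted p = 0.000198 over 99 correlations), rho = 0.845 (permutation p = 1e-05, adjusted p = 9.9e-05), r = 0.843 without the 2 mice farthest from the median of the sum and r = 0.808 within groups. Ampd1 ran against the slow fibre markers, led by Myl2 and Myl3, with r = -0.7 (permutation p = 4e-05, adjusted p = 0.00044), rho = -0.712 (permutation p = 1e-05, adjusted p = 9.9e-05), r = -0.639 without the 2 farthest mice and r = -0.629 within groups. Nt5c1a ran against the summed adipocyte markers with r = -0.705 (permutation p = 1e-05, adjusted p = 0.000198), rho = -0.725 (permutation p = 1e-05, adjusted p = 9.9e-05), r = -0.707 without the 2 farthest mice and r = -0.696 within groups. That sum was mostly Fabp4, at a mean of 220.9 CPM against 6.94 for the next marker, Cfd, and is not read as an amount of fat cells. Mouse 1, the highest for Nt5c1a in all 6 groups, had an adipocyte sum below the group median in every group but HFD-C. The permutations and the subtraction of group means do not account for this pattern by mouse number. The libraries share depth and composition, so these are relations of levels within the same samples.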
